A study of Gallus gallus with 6 samples.

Results

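The RNA-seq table of chick lens cells held 148 loci that carried only Rfam family names and reached a mean of at least 1 FPKM over the 6 libraries. Rfam is a database of structural RNA families, and its family number (RF followed by digits) stands in the annotation where a protein-coding gene would have a symbol. FPKM is the number of sequenced fragments divided by transcript length and by the mapped fragments of the library. Whether short RNAs were recovered as well as longer ones was not tested. Differences in FPKM between families, and shares of FPKM, are therefore listed values and not measured amounts of RNA. The 148 loci were taken from 343 loci with only Rfam names and from 17340 loci in all. Of the other Rfam-named loci, 133 were listed at 0 in every library and 62 lay above 0 but under a mean of 1 FPKM. The loci were chosen by their name and their mean FPKM over all libraries, so their abundance is given below as a description. The rule did not use the difference between the conditions, but a locus could reach the mean through a single condition. Such loci are named as such where they are described singly, and the family sums can hold others.

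Structural small RNAs act as RNA rather than as templates for protein. Small nuclear RNAs build the spliceosome, 7SK RNA holds the elongation kinase P-TEFb inactive, signal recognition particle (SRP) RNA directs nascent secretory proteins to the endoplasmic reticulum, and small nucleolar RNAs guide or carry out the maturation of ribosomal RNA. Most of them lack a poly(A) tail, so they are seen in total RNA libraries, and many exist as near-identical gene copies. Names such as U1 are used below only where the Rfam number fixed them from general knowledge, which held for 38 of the 148 loci. The other 110 are called by number.

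Primary lens cells of White Leghorn chick embryos at embryonic day 10, grown on laminin, were incubated with 1 mM DMOG for 4 h (3 libraries) or left untreated (3 libraries). DMOG inhibits prolyl hydroxylases and thereby activates the transcription factor HIF1α. The study allows that DMOG may have further effects in the lens. The comparison is of treated with untreated cells, so whether a difference depends on HIF1α was not tested here. The methods describe biological triplicates and stranded total RNA libraries. Markers of the lens were present, with 10 of 14 listed genes at 1 FPKM or more and a summed level of 1063 to 1698 FPKM with DMOG and 1120 to 1734 FPKM without it. CRYAA and ASL1, a lens crystallin of birds, were among them. Of 6 erythroid markers 1 reached that level, namely ALAS2 at 8.12 to 12.9 FPKM, while HBBA and HBA1 were listed at 0. Of 5 mesenchymal markers 2 reached it, and of 5 retinal markers 0 did. By name, 11 of the lens, 3 of the erythroid, all 5 of the mesenchymal and 3 of the retinal markers were found. Markers not found by name could not be judged. The depth of the libraries cannot be told from FPKM, and in bulk RNA fewer cells of a type and less RNA per cell cannot be told apart.

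The Rfam-named loci held between 23.4% and 36.9% of all FPKM in a library. Their share was 24.2%, 32.8% and 36.9% in DMOG libraries 1, 2 and 3. In untreated libraries 1, 2 and 3 it was 28.1%, 23.4% and 26.2%. DMOG libraries 2 and 3 lay above every untreated library and DMOG library 1 lay below 2 of them, so the conditions overlapped. The mean was 31.3% ± 6.48 (SD, n = 3) with DMOG and 25.9% ± 2.37 (SD, n = 3) without it, a difference of 5.40 percentage points. Without DMOG library 1 the difference was 8.95 points and the conditions no longer overlapped, and without DMOG library 3 it was 2.59 points.

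A pair of loci carried most of this share. The 7SK locus MSTRG.78989 alone made 40.1% of the FPKM of the 148 loci, and together with the U2 locus MSTRG.132 it made 67.7%. U2 pairs with the branch point of the intron during splicing. The 12 most abundant loci held 92.1% and the 20 most abundant 95.9%, while the median locus had a mean of 9.10 FPKM. The U2 locus took 6.18%, 11.1% and 11.1% of all FPKM in DMOG-treated cells, against 7.10%, 4.90% and 6.48% in untreated cells. DMOG libraries 2 and 3 stood above the rest in this share, and DMOG library 1 lay among the untreated libraries. When the U2 locus was left out of the summed loci but kept in the library total, the difference in share between the conditions was 2.13 percentage points.

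**Figure D1:**
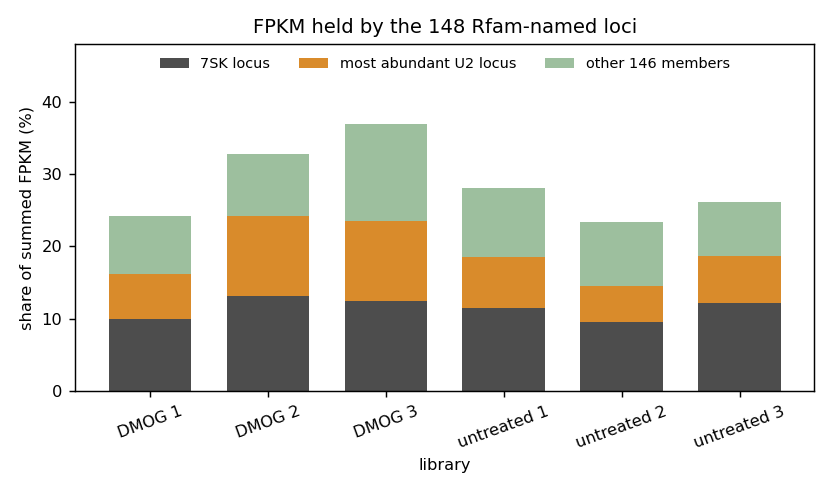
Share of the summed FPKM of each library (percent, vertical axis) held by the 7SK locus, the most abundant U2 locus and the other 146 Rfam-named loci, for 3 DMOG and 3 untreated libraries. The bars reach 36.9% in DMOG library 3 and 23.4% in untreated library 2, and DMOG library 1, at 24.2%, stands within the untreated range.

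At the lower end, the least abundant loci inside the threshold both belonged to family RF02271, MSTRG.128440 with a mean of 1.05 FPKM and MSTRG.74619 with 1.02 FPKM. Their untreated means were 0.0333 and 0.690 FPKM, so both reached the threshold through the DMOG libraries alone. The nearest loci outside it were MSTRG.49450 of RF02275 at 0.900 FPKM and MSTRG.104852 of RF02271 at 0.868 FPKM. Low loci were often listed at 0. Of the 148 loci, 58 were at 0 in at least 1 library (39.2%), against 6.65% of the 9816 loci of the table that reached the same mean and were tested. The number at 0 was 20, 29 and 26 in DMOG libraries 1, 2 and 3, against 18, 14 and 10 in the corresponding untreated ones. In the whole table the share of loci at 0 was also highest in DMOG libraries 2 and 3, at 33.0% and 35.9%, with 25.2% to 30.5% in the other libraries, and its part in the values below was not tested.

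The library that stood highest was unevenly divided. DMOG library 3 held the highest value of 63 of the 148 loci (42.6%), against 12.1% of all tested loci. Among the 20 most abundant loci it was the highest in 16 and DMOG library 2 in the other 4. DMOG library 1 was the highest in 10 of the 148 loci and in none of the 20 most abundant. The 3 DMOG libraries therefore spread widely at the abundant loci.

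Each locus was compared between the conditions with limma on log2(FPKM + 0.5), fitted over all 9816 tested loci. The limits of the study were used, which ask for an unadjusted p under 0.05 and a log2 fold change of 0.6 or more, upward or downward. Of the 148 loci, 9 were higher with DMOG and 7 were lower. That is 10.8% past the limits, with 7.81% of all tested loci past them. For higher loci the background was 2.84% (6.08% of the 148), and for lower loci 4.97% (4.73% of the 148). With Benjamini-Hochberg adjustment over all tested loci 1 of the 148 had an adjusted p under 0.05 (0.676%, background 0.194%).

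The median log2 fold change of the 148 loci was -0.02, with quartiles of -0.50 and 0.46 and single loci from -3.26 to 3.69. Over all tested loci the median was -0.13, and it was -0.01 when every library was scaled to the same median, where the 148 loci had 0.09. The log2 fold change was above 0 at 73 of the 148 loci (49.3%), and at 36.3% of all tested loci. Precision was lower at these loci, with a median standard error of 0.55 on the log2 scale against 0.32 over all tested loci. Loci that reached the mean of 1 FPKM through a single condition were 15 with an untreated mean under 1 FPKM and 6 with a DMOG mean under 1 FPKM, and 4 of the 16 loci past the limits were among them. These had to differ to be tested at all, so the counts are read as a description.

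**Figure D2:**
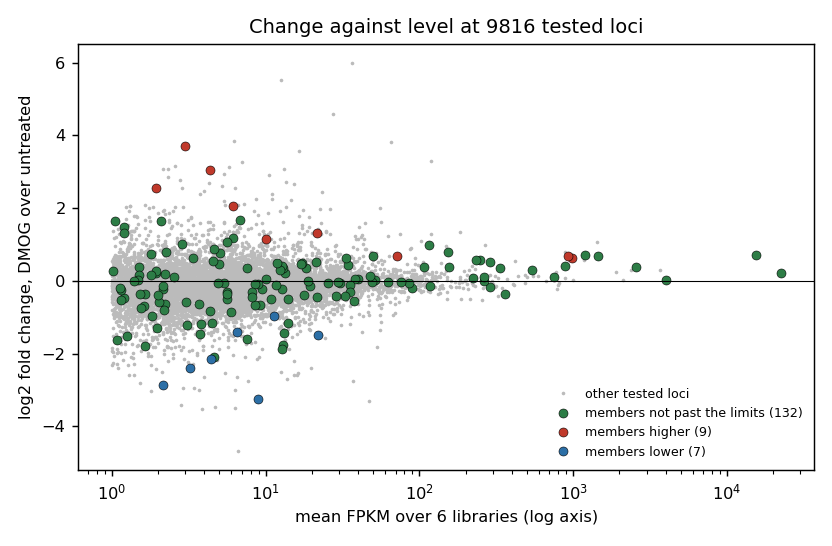
Log2 fold change, DMOG over untreated, on log2(FPKM + 0.5) (vertical axis) against the mean FPKM over 6 libraries (log axis) at 9816 tested loci. Grey points are other loci, green points the 132 Rfam-named loci not past the limits, red points the 9 higher and blue points the 7 lower. The Rfam-named loci scatter widely at low level, and all 6 of at least 1000 FPKM lie above 0 in this fit, with RF00319 at -0.18 under quantile normalization.

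At the abundant loci most values lay above 0. All 6 loci of at least 1000 FPKM and 16 of the 19 between 100 and 1000 FPKM had a log2 fold change above 0, although with quantile normalization RF00319 lay at -0.18 and U1 MSTRG.80982 at -0.21. All 14 tested loci of at least 1000 FPKM, these 6 included, were above 0 in the fit as designed. In total, 22 of 25 Rfam-named loci of at least 100 FPKM were above 0, with a median of 0.38, whereas 74 of the 136 other tested loci of at least 100 FPKM (54.4%) were above 0, with a median of 0.02. Below 100 FPKM, 51 of 123 Rfam-named loci were above 0. By bands of 1 to 5, 5 to 20 and 20 to 100 FPKM, their shares were 43.6%, 39.5% and 40%. Over all tested loci of the same bands 34.8%, 34.5% and 46.3% were above 0. The division at 100 FPKM was chosen after the values were seen, and the difference between these groups of loci was not tested, since loci of a library are not independent. Without DMOG library 3, which was the highest library at most of the 25 loci, 16 of 25 were above 0 and the median was 0.13. With quantile normalization 14 of 25 were above 0 with a median of 0.19. That method sets loci of equal rank in every library to no change, so 3 of the 25 (7SK, U2 and RF00045) were at exactly 0 by construction and 8 were below 0. Lastly, median scaling gave 22 of 25 with a median of 0.51. The 136 other loci also moved with these settings. With median scaling 75.7% of them were above 0 (median 0.15). Their share was 39.0% with quantile normalization (median -0.05) and 57.4% without DMOG library 3 (median 0.05).

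The 2 most abundant loci did not pass the limits. 7SK (MSTRG.78989) was at 18957, 27986 and 25595 FPKM in DMOG libraries 1, 2 and 3 and at 21153, 16347 and 24731 FPKM in untreated libraries 1, 2 and 3. The ranges overlapped, with a log2 fold change of 0.22 ± 0.30 (SE, limma adjusted p = 0.849). U2 (MSTRG.132), a locus that joins 2 annotated transcripts, was at 11692, 23472 and 22733 FPKM with DMOG and at 13135, 8329 and 13114 FPKM without it. DMOG libraries 2 and 3 were above all untreated libraries and DMOG library 1 was below 2 of them. The log2 fold change was 0.71 ± 0.37 (SE, limma adjusted p = 0.612), and without DMOG library 1 it was 1.03 and passed the limits, whereas without DMOG library 3 it was 0.56.

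Of the other abundant spliceosomal loci, 1 was past the limits. U4, which chaperones U6 before the spliceosome is activated, had a pair of abundant loci. MSTRG.38582 was at 863, 1116 and 1492 FPKM with DMOG and at 811, 713 and 597 FPKM without it. Every DMOG library was above every untreated one, by a log2 fold change of 0.68 ± 0.25 (SE, limma unadjusted p = 0.025, adjusted p = 0.480). The call was lost in 7 of 15 alternatives, namely with quantile normalization (0.33), with no filter on the mean, with the replicate block and in 4 of the 6 fits that each left out 1 library. These gave a log2 fold change of 0.48 without DMOG library 3, 0.69 without DMOG library 2, 0.70 without untreated library 2 and 0.57 without untreated library 3. The neighbouring U4 locus by level, MSTRG.38586, was at 1190, 1586 and 2623 FPKM with DMOG and at 1391, 1023 and 858 FPKM without it. Here DMOG library 1 lay below untreated library 1, and the log2 fold change of 0.67 ± 0.33 (SE) missed the limits (limma adjusted p = 0.593), passing them only without DMOG library 1, at 0.93. It was 0.36 without DMOG library 3 and 0.22 with quantile normalization.

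U1 recognises the start of the intron, and its most abundant locus had its libraries in the same order as U4 MSTRG.38586. MSTRG.81009 was at 896, 1508 and 2127 FPKM with DMOG and at 1048, 875 and 733 FPKM without it. DMOG library 1 again lay below untreated library 1. Its difference of 0.70 ± 0.33 (log2, SE, limma adjusted p = 0.581) was 1.03 without DMOG library 1, where it passed the limits, and 0.41 without DMOG library 3. The U1 locus MSTRG.80982 was at 378, 741 and 1344 FPKM with DMOG and at 749, 575 and 714 FPKM without it, so DMOG libraries 1 and 3 held its lowest and highest values. There the log2 fold change was 0.10 ± 0.42 (SE), and -0.35 without DMOG library 3.

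The SRP RNA locus MSTRG.104285 passed the limits although its libraries overlapped. It was at 1031, 1161 and 1367 FPKM with DMOG and at 663, 614 and 1074 FPKM without it, with untreated library 3 above DMOG library 1. The log2 fold change was 0.63 ± 0.26 (SE, limma adjusted p = 0.537). It did not pass the limits in 8 of 15 alternatives. These were the fits without DMOG library 2 (0.65) or 3 (0.53) or untreated library 1 (0.54) or 2 (0.48), with quantile normalization (0.39), with no filter on the mean, with no mean-variance trend and with the replicate block. RNase P RNA, the catalytic RNA that trims the leader of transfer RNA, was at 528, 491 and 754 FPKM with DMOG and at 453, 342 and 675 FPKM without it at MSTRG.116747. These ranges overlapped, with a log2 fold change of 0.30 ± 0.29 (SE, limma adjusted p = 0.790).

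The remaining 4 of the 12 most abundant loci are known here by number, and none passed the limits. RF00045 (MSTRG.63280), the next most abundant locus after U2, was at 3439, 3334 and 5508 FPKM with DMOG and at 4030, 3927 and 3801 FPKM without it. Its untreated libraries lay close together, with DMOG libraries 1 and 2 below them and DMOG library 3 above. Between the conditions the log2 fold change was 0.02 ± 0.25 (SE), and -0.21 without DMOG library 3. RF00319 (MSTRG.96748) was at 2147, 2605 and 3957 FPKM with DMOG and at 2638, 2014 and 1904 FPKM without it, and RF00067 (MSTRG.22424) at 739, 843 and 1446 FPKM against 1108, 575 and 614 FPKM. Both had DMOG library 3 on top and overlapped, with log2 fold changes of 0.38 and 0.40, which were 0.13 and 0.11 without DMOG library 3. RF00478 (MSTRG.119529) was at 309, 162 and 524 FPKM with DMOG and at 456, 439 and 281 FPKM without it, so DMOG held both its highest and its lowest library. At that locus the log2 fold change was -0.37 ± 0.42 (SE), and 0.07 without DMOG library 2.

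**Figure D3:**
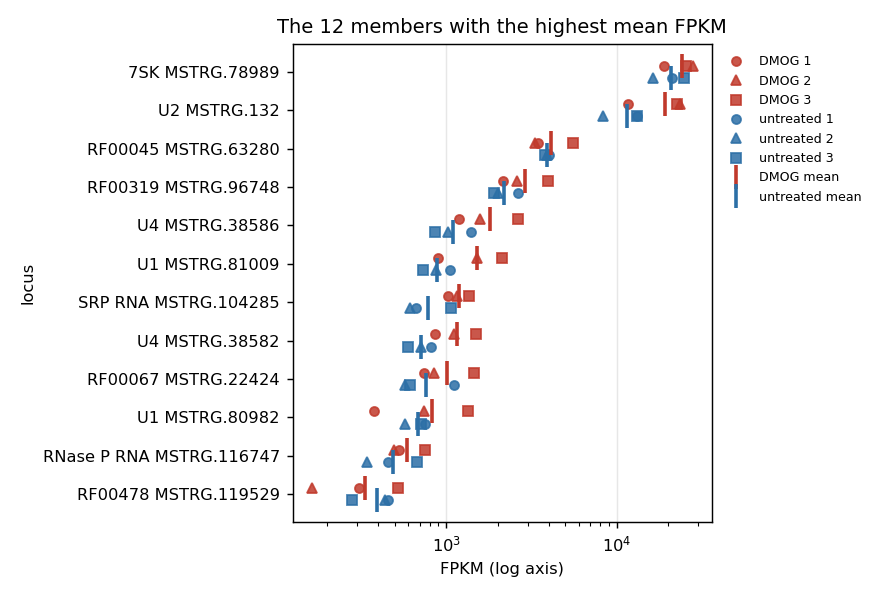
FPKM (log axis) of the 12 Rfam-named loci with the highest mean, 1 row per locus, with a point for each of 3 DMOG (red) and 3 untreated (blue) libraries and a bar at each group's arithmetic mean. The colours overlap in every row except U4 MSTRG.38582, and the DMOG points spread most at U1 MSTRG.80982, from 378 to 1344 FPKM.

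The 1 locus with an adjusted p under 0.05 was low in level. RF00288 (MSTRG.42433) was at 5.47, 5.32 and 7.28 FPKM in the DMOG libraries and listed at 0 in every untreated library. The conditions did not overlap, and no fold is given against a group at 0 (limma unadjusted p = 1.3e-05, adjusted p = 0.0127). It reached the mean of 1 FPKM through the DMOG libraries alone and so had to differ to be tested, which limits what its p and the range of its adjusted p over the alternatives (0.00363 to 0.201) can show. The adjusted p was 0.0615 without DMOG library 1, 0.0871 without DMOG library 2, 0.0609 without untreated library 1, 0.070 without untreated library 2 and 0.201 with the replicate number as a block.

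The other higher loci had a limma adjusted p between 0.185 and 0.537. RF02275 (MSTRG.127060) was at 24.1, 39.4 and 29.4 FPKM with DMOG and at 9.79, 10.4 and 16.8 FPKM without it. It did not overlap, with a log2 fold change of 1.31 ± 0.28 (SE), and passed the limits under every alternative. A U6 locus, MSTRG.67035, was at 12.1, 14.6 and 14.6 FPKM with DMOG and at 5.04, 9.10 and 4.50 FPKM without it. U6 forms the catalytic core of the spliceosome with U2, and at this locus all DMOG libraries were above all untreated ones by 1.15 ± 0.28 (log2, SE), again under every alternative. RF02271 locus MSTRG.8280 was at 6.66, 7.07 and 16.9 FPKM against 0.75, 2.40 and 3.18 FPKM, a log2 fold change of 2.05 ± 0.51 (SE). RF01156 (MSTRG.51722) was at 2.87, 5.73 and 2.26 FPKM against 0, 0 and 0.68 FPKM, with a log2 fold change of 2.54 ± 0.55 (SE) that depends on the pseudocount. Neither of these loci overlapped between the conditions. MSTRG.8280 passed the limits under every alternative, whereas RF01156 reached the mean of 1 FPKM through the DMOG libraries alone and had to differ to be tested.

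A pair of higher loci held less firmly. RF00494 (MSTRG.21643) was at 68.7, 93.2 and 104 FPKM with DMOG and at 51.8, 59.0 and 52.6 FPKM without it, all DMOG libraries above all untreated ones. The log2 fold change was 0.68 ± 0.20 (SE, limma adjusted p = 0.360) and 0.55 without DMOG library 3, which is short of the limit. The Y RNA locus MSTRG.49216, of a family bound by the Ro protein, was listed at 0 in DMOG library 1 and in all untreated libraries, and at 6.44 and 19.6 FPKM in DMOG libraries 2 and 3. It too was tested only because of its DMOG libraries, overlapped at 0 and no longer passed the limits when DMOG library 2, DMOG library 3 or any single untreated library was left out, with a limma adjusted p from 0.0553 to 0.864 over the alternatives in which it was tested. The call was also lost in 2 alternatives that kept every library.

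The 7 lower loci all had a mean under 25 FPKM and a limma adjusted p between 0.271 and 0.538. RF01277 (MSTRG.55203) was at 10.7, 9.53 and 10.4 FPKM with DMOG and at 36.3, 49.7 and 14.5 FPKM without it. Its DMOG libraries were close together and below every untreated one, with a log2 fold change of -1.50 ± 0.42 (SE) that passed the limits under every alternative. The remaining U4 locus, MSTRG.40336, was listed at 0 in every DMOG library and was at 1.23, 9.50 and 2.22 FPKM without DMOG, the opposite direction from the abundant U4 locus. No fold is given against a group at 0, and the locus reached the mean of 1 FPKM through the untreated libraries alone, so it had to differ to be tested. RF00398 (MSTRG.42507) was at 9.07, 0 and 0.28 FPKM with DMOG and at 11.5, 19.0 and 13.6 FPKM without it, with a log2 fold change of -3.26 ± 1.00 (SE). That size depends on the pseudocount, and the log2 ratio of the group means was -2.24. RF00398 passed the limits under every alternative. Without DMOG library 1, the library nearest to the untreated ones, its limma adjusted p was 0.0145. That was the lowest over the alternatives, where the highest was 0.805.

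The other 4 lower loci lost the call when single libraries were left out. RF00091 (MSTRG.48249) was at 6.26, 6.26 and 9.16 FPKM against 23.6, 10.6 and 12.2 FPKM, a log2 fold change of -0.98 ± 0.33 (SE) that was -0.64 without untreated library 1 and -0.90 without DMOG library 1 or 2. RF00573 (MSTRG.98996) was at 3.98, 0 and 0 FPKM with DMOG against 4.00, 6.64 and 4.62 FPKM, so DMOG library 1 nearly reached untreated library 1. Its log2 fold change was -2.40 ± 0.84 (SE), and -1.87 without DMOG library 2 or 3, -2.21 without untreated library 2 and -2.45 without untreated library 3, all short of the p limit. The size depends on the pseudocount, since DMOG libraries 2 and 3 were at 0, and ran from -3.88 to -1.81 over the alternatives. RF02271 locus MSTRG.61979 was at 1.18, 4.73 and 0 FPKM against 4.92, 7.14 and 8.52 FPKM, a log2 fold change of -2.14 ± 0.77 (SE), and it missed the p limit when DMOG library 1 (-2.15) was left out, or untreated library 2 (-2.09) or 3 (-1.97). With DMOG library 3 at 0, the size of its change also depends on the pseudocount. RF00426 (MSTRG.24129) was at 1.91, 7.65 and 1.52 FPKM against 14.5, 7.76 and 5.50 FPKM and overlapped, with a log2 fold change of -1.41 ± 0.58 (SE). It missed the p limit when DMOG library 1 (-1.16) or 3 (-1.03) or untreated library 1 (-1.05) or 2 (-1.48) was left out. Its call was lost in 9 of 15 alternatives, 5 of which kept every library. RF00573 and MSTRG.61979 each lost the call in 1 alternative that kept every library.

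**Figure D4:**
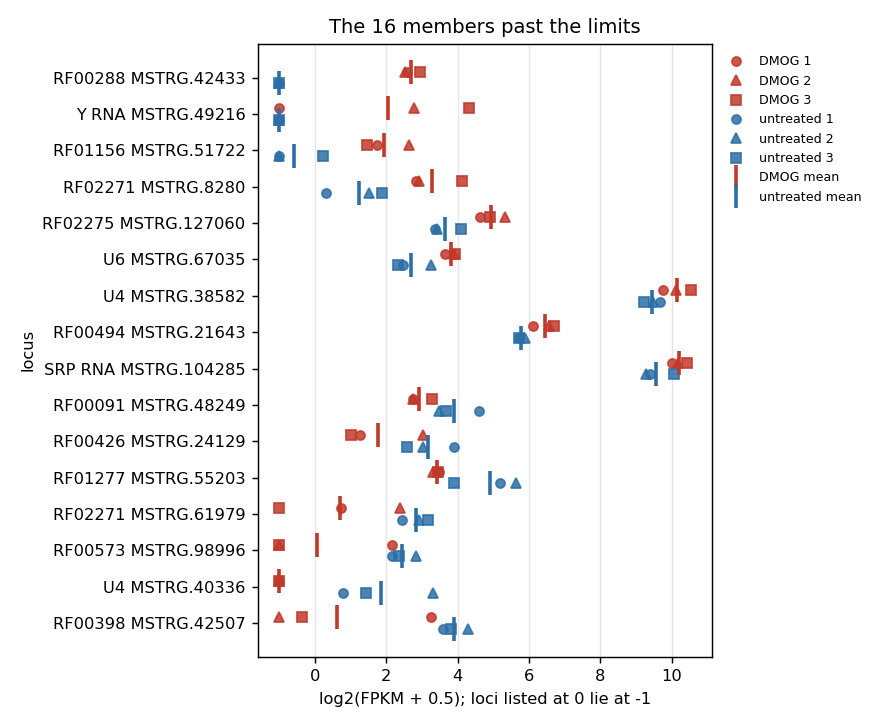
Log2(FPKM + 0.5) (horizontal axis) of the 16 Rfam-named loci past the limits, 9 higher at the top and 7 lower below, with a point for each of 3 DMOG (red) and 3 untreated (blue) libraries and a bar at each group's mean of the log2 values. Points at -1 are loci listed at 0, and 13 of the 16 rows show no overlap between the colours.

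Of the 16 loci past the limits, 13 did not overlap between the conditions, 11 had a mean under 20 FPKM and 7 were listed at 0 in at least 1 library. Over the 148 loci, 7 had every DMOG library above every untreated one (4.73%), against 4.47% of all tested loci, and 6 had every DMOG library below (4.05%), against 11.4%. The first share lay near its background, and the difference of the second from its background was not tested. Of the 16 calls, 8 were lost under at least 1 of the fits that left out a library. The other 8 were not, and 3 of those (RF00288, RF01156 and U4 MSTRG.40336) were loci that had to differ to be tested.

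Loci of a family share much of their sequence, and how reads were divided between near-identical copies is not given in the sources used here. Single loci of U1, U2, U4, U6, SRP RNA and RF02271 are therefore uncertain. FPKM was for this reason also summed over the loci of each family among the 148, as a description with no test. Loci joined with other genes are left out of these sums. The U1 family had 8 of its 19 loci among the 148, with sums of 1425, 2501 and 3849 FPKM with DMOG and 2042, 1653 and 1692 FPKM without it. U4 had 3 such loci, with sums of 2053, 2702 and 4115 FPKM against 2203, 1745 and 1457 FPKM. In both families DMOG libraries 2 and 3 stood above all untreated libraries and DMOG library 1 below untreated library 1, with ratios of group means of 1.44 and 1.64. On the log2 scale these are 0.53 and 0.71, and 0.13 and 0.40 without DMOG library 3.

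U6, with 5 of 28 loci among the 148 and 18 listed at 0 throughout, was listed far lower. Its sums were 41.2, 54.9 and 79.9 FPKM with DMOG and 42.3, 35.0 and 28.6 FPKM without it. All 5 loci had a log2 fold change above 0. Of these, MSTRG.123307 and MSTRG.123472 (untreated means of 0.83 and 0.22 FPKM) reached the mean of 1 FPKM through DMOG alone, so their direction was favoured by the filter. The sums overlapped. The ratio was 1.66, or 0.73 on the log2 scale, with 0.68 with no filter on the mean and 0.44 without DMOG library 3. U5, which aligns the exons, was at 7.61, 1.54 and 14.2 FPKM against 8.56, 1.78 and 5.06 FPKM over 3 loci. Of these, MSTRG.49368 was listed above 0 in DMOG library 3 alone. In each library the U5 sum was listed far below that of U1, although both belong to the same spliceosome. Whether the libraries recovered both RNAs alike was not tested. The 3 U2 loci had a ratio of 1.67, which rested on the abundant locus: the log2 ratio was 0.74 with it and -0.92 without it. The value without it comes from MSTRG.67918 and MSTRG.128179, with means of only 1.56 and 1.145 FPKM and some libraries at 0. MSTRG.67918, with a DMOG mean of 0.863 FPKM, reached the mean of 1 FPKM through the untreated libraries alone, so its direction was favoured by the filter.

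Over the 22 loci of the major spliceosome (U1, U2, U4, U5 and U6) the summed level was 15223, 28732 and 30793 FPKM with DMOG and 17432, 11768 and 16303 FPKM without it. The ratio of means was 1.64 and DMOG library 1 lay below untreated libraries 1 and 3. The minor spliceosome removes a rare class of introns, and its 4 loci (U11, U12, U4atac and U6atac) gave 12.5, 20.4 and 52.8 FPKM against 41.3, 27.8 and 31.4 FPKM. That ratio was 0.852, with both the highest and the lowest library treated with DMOG.

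Ratios within a library do not depend on its total. 7SK over U2 came to 1.62, 1.19 and 1.13 in DMOG libraries 1, 2 and 3 against 1.61, 1.96 and 1.88 in the untreated ones, so DMOG libraries 2 and 3 were below all untreated libraries and DMOG library 1 was level with untreated library 1. U4 over U1 was 1.44, 1.08 and 1.07 against 1.08, 1.06 and 0.861, and U6 over U1 was 0.0289, 0.0219 and 0.0207 against 0.0207, 0.0212 and 0.0169. U2 over U1 was 8.21, 9.38 and 5.91 against 6.43, 5.04 and 7.76. Each of these 4 ratios overlapped between the conditions.

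**Figure D5:**
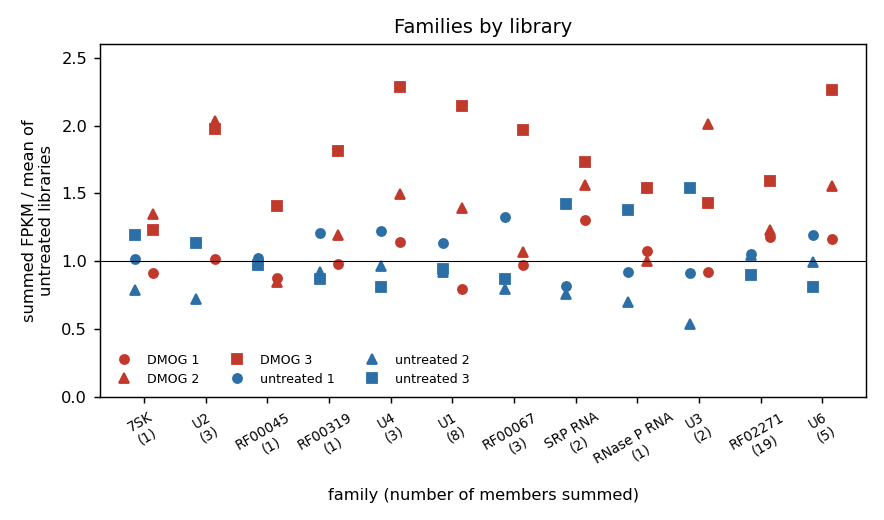
Summed FPKM of 12 families in each library, divided by the mean of the 3 untreated libraries (vertical axis), with the number of summed loci under each family name and a point for each DMOG (red) and untreated (blue) library. DMOG library 3 is the highest point for every family shown except 7SK, U2 and U3, where DMOG library 2 is. RF02271 is the 1 family shown whose colours do not overlap, and some of its loci passed the filter through DMOG alone.

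RF02271 was the largest family, with 19 loci among the 148, and 75 in the whole table of which 29 were listed at 0 throughout. Its sum was 78.5, 81.9 and 106 FPKM with DMOG and 70.0, 69.6 and 60.0 FPKM without it. Every DMOG library was above every untreated one, with a ratio of means of 1.33. On the log2 scale this is 0.42, and 0.33 with no filter on the mean. MSTRG.54279, MSTRG.66319, MSTRG.124823, MSTRG.128440 and MSTRG.74619 reached the mean of 1 FPKM through DMOG alone, and MSTRG.90045 through the untreated libraries alone. The filter therefore shaped this sum. The single loci did not move together, since 9 of 19 had a log2 fold change above 0, 1 passed the limits upward and 1 downward. The 3 loci of RF00067 all had one above 0, at 0.36 to 0.40, with DMOG library 3 the highest in each, and the log2 ratio of their sum was 0.42 with that library and 0.03 without it.

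SRP RNA summed over 2 loci was at 1134, 1356 and 1506 FPKM with DMOG and at 710, 659 and 1238 FPKM without it. The ratio was 1.53, with untreated library 3 above DMOG library 1. This sum leaves out the loci that join RF00017 with LRR1 (mean 3681 FPKM) or NEMF (mean 1168 FPKM), so it is only a part of the family. U3, a nucleolar RNA needed to cleave the ribosomal precursor, was at 212, 463 and 329 FPKM over 2 loci against 211, 125 and 355 FPKM. 5.8S rRNA, a part of the large ribosomal subunit, was at 180, 396 and 250 FPKM against 169, 294 and 284 FPKM at its single locus. Both overlapped, with ratios of 1.45 and 1.11. U12 was at 9.15, 16.5 and 33.1 FPKM against 19.5, 25.4 and 13.5 FPKM, a ratio of 1.01 with DMOG at both ends of the range and a log2 ratio of -0.60 without DMOG library 3.

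Y RNA summed over 3 loci was at 11.3, 15.0 and 51.2 FPKM with DMOG and at 13.4, 9.02 and 10.99 FPKM without it. Its log2 ratio of 1.21 rested on DMOG library 3 and was 0.24 without that library. The 2 vault RNA loci lay under 5 FPKM in every library, and vault RNA belongs to a large cytoplasmic particle of unsettled function. The U11 locus MSTRG.63295 was at 1.48, 1.97 and 6.49 FPKM against 9.01, 0 and 1.42 FPKM, and its log2 ratio was -0.07, with -1.01 without DMOG library 3 and 2.22 without untreated library 1. The 5S rRNA family had 52 loci in the table, none of which reached 1 FPKM and the highest of which had a mean of 0.277 FPKM, and the single U7 locus was listed at 0.

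Another 79 loci joined an Rfam name with other genes and are not counted above. They held 4.13% to 5.30% of the FPKM of a library. Of the 77 tested, 0 were past the limits in limma (background 7.81%), and 1 had an unadjusted p under 0.05 (background 9%). Some were abundant and carry the SRP RNA family. RF00017 joined with LRR1 was at 2783, 4242 and 5167 FPKM with DMOG and at 2998, 2630 and 4263 FPKM without it, which overlapped (log2 fold change 0.29). RF00017 joined with NEMF was at 662, 2909 and 863 FPKM against 1009, 391 and 1171 FPKM, with DMOG library 2 far above the rest. RNase MRP RNA, which acts in ribosomal RNA processing, was found only joined with ING2, at a mean of 108 FPKM and a log2 fold change of 0.16.

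Proteins that build, transcribe or bind these RNAs were described with a list of 99 symbols, of which 79 were tested. Some were tested as loci that join the partner with other genes, such as SNAPC5 with RPL4, CCNT1 with KANSL2 and TERT with CLPTM1L. Their values are not those of the partner alone. DKC1, NOP56, NOP58, RPL5 and SNAPC5 lay in loci that also join an Rfam name. Of the 79 tested partners, 2 were higher and 2 lower past the limits (5.06%, background 7.81%). Their median log2 fold change was -0.12, close to the -0.13 of all tested loci. No partner had an adjusted p under 0.05 (background 0.194%), and 5 of the 79 had an unadjusted p under 0.05 in limma (background 9%). SNAPC1, a subunit of the complex that starts transcription of small nuclear RNA genes, was at 17.0, 15.1 and 10.4 FPKM with DMOG and at 2.33, 3.73 and 5.16 FPKM without it. Every DMOG library was above every untreated one, by a log2 fold change of 1.82 ± 0.32 (SE, limma adjusted p = 0.107). None of the other 6 tested loci of that group was past the limits, and those of SNAPC4 and SNAPC5 were joined with other genes.

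LSM5, of the ring of proteins that binds the end of U6, was at 12.1, 10.0 and 11.1 FPKM with DMOG and at 6.33, 6.51 and 7.21 FPKM without it. It did not overlap, with a log2 fold change of 0.68 ± 0.19 (SE, limma adjusted p = 0.349). The other tested proteins of that ring were not past the limits. LSM6 (log2 fold change 0.59) was also higher in every DMOG library, while LSM3 (0.39) and LSM8 (-0.60) overlapped. LSM2, LSM4 and LSM7 were not found by name. PHAX, an adaptor that exports small nuclear RNA from the nucleus, was at 6.68, 6.64 and 7.07 FPKM against 9.04, 11.8 and 11.3 FPKM, lower in every DMOG library by a log2 fold change of -0.61 ± 0.20 (SE, limma adjusted p = 0.437). LSM11, a protein of the U7 particle, was at 2.41, 4.62 and 2.26 FPKM against 4.57, 5.94 and 6.31 FPKM, which overlapped (log2 fold change -0.81 ± 0.32, SE). None of the 9 tested U snRNP proteins, the 6 SRP proteins or the 5 proteins of the 7SK particle was past the limits in this fit.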

How the data were processed

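RNA-seq of 3 DMOG and 3 untreated libraries was used. Per the methods and labels, the authors used cutadapt for trimming, Bowtie2 and HISAT2 for mapping to galGal6, StringTie for assembly and edgeR for expression, with no tool versions given in the sources used here. The deposited FPKM values are rounded to 2 decimals, and how multi-mapped reads were handled is not given in the sources used here. The deposited fold ratio, its log2 value and the p-value are the authors' own comparison and were not used. FPKM is relative, so a change in the most abundant loci shifts the others; a scaling on the total of the other loci was therefore tried. Ratios of low values showed no steps of whole reads (at most 2.24% of loci in 1 bin), so the depth is unknown and precision comes from the spread between libraries.

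Loci were taken whose name parts all start with RF0 and whose mean reached 1 FPKM. With limma 3.58.1 (R 4.3.3), log2(FPKM + 0.5) of all 9816 loci at that mean was fitted with treatment as the only term and a mean-variance trend, two-sided, with Benjamini-Hochberg adjustment over all of them, and tested on simulated data. Tables were made with Python 3.11.15, pandas 2.3.3 and numpy 2.4.6 and figures with matplotlib 3.10.9. An exact permutation test of 3 against 3 libraries cannot go below p = 0.1, so none was used. Named loci were the 12 most abundant, those with an adjusted p under 0.05, up to 8 in each direction past the limits and the 2 on each side of the threshold. Named families had 3 or more loci, a summed mean of at least 500 FPKM or a name fixed from the Rfam number, and partner genes were named where past the limits. The joined loci, the U11 locus and partner genes short of the limits were named outside this rule, after their values were seen. So were single loci of RF00067, U2, U5, U6 and RF02271 beyond those that the rule gave. Alternatives were pseudocounts of 0.1 and 1, a minimum mean of 5 FPKM or none, median, non-member total and quantile scaling, no trend, a replicate block and leaving out each library. The loci, lists and tests were chosen with earlier results of these data known.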

Additional observations from a re-analysis of the deposited data

How the results depend on the processing

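Of the 9 higher and 7 lower Rfam-named loci, the count of lower loci was 4 with no filter on the mean and 3 at a mean of at least 5 FPKM, where 93 of the 148 loci were left. Leaving out single libraries gave 6 to 18 higher loci, 4 to 18 lower loci and 0 to 2 with an adjusted p under 0.05. The extremes were 18 higher and 4 lower without DMOG library 1, and 9 higher and 18 lower without DMOG library 3, so the balance of directions depends on these libraries. The 1 locus with an adjusted p under 0.05 was RF00288 in the fit as designed, but RF00398 without DMOG library 1 and RF00288 with RF01277 without untreated library 3. That count was 0 at a mean of at least 5 FPKM, where RF00288 was not tested, and 0 with the replicate number as a block. The block gave 7 higher and 8 lower loci, 14 of the 16 calls among them. Libraries with the same number did not deviate together (correlations of -0.11, -0.17 and -0.23). Deviations from a mean of 3 libraries are tied to each other, so this cannot show whether the numbers mark paired preparations. Over all tested loci the share of calls that were higher was 36.4%, and 56.1% with median scaling and 56.2% with quantile normalization, while for the 148 loci it was 56.3%, 62.5% and 53.8%. Turns of direction are listed here only for the loci named by the rule, and other loci turned as well. Of the 25 Rfam-named loci of at least 100 FPKM, 22 were above 0 in the fit as designed. With quantile normalization 14 were above 0 and 8 below, and without DMOG library 3 16 were above 0. Under quantile normalization the log2 fold change turned at RF00319 (-0.18) and U1 MSTRG.80982 (-0.21). Without DMOG library 3 it turned at RF00045 (-0.21), U1 MSTRG.80982 (-0.35) and RF02271 MSTRG.74619 (-0.79). It also turned without untreated library 2 at U1 MSTRG.80982 (-0.02) and without untreated library 2 or 3 at RF02271 MSTRG.74619 (-0.12), and at RF00478 MSTRG.119529 without DMOG library 2 (0.070). Over the fits that left out 1 library, RF00045 ran from -0.21 to 0.15, U1 MSTRG.80982 from -0.35 to 0.56, RF00478 MSTRG.119529 from -0.77 to 0.070 and RF02271 MSTRG.74619 from -0.79 to 1.06. The causes were not tested. The difference in share of FPKM ran from 2.59 to 8.95 percentage points without single libraries.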
